A study of Mus musculus with 2 samples.

Results

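The genes of the NF-kB transcription factor subunits and of the IkB proteins that bind them were examined in erythroid progenitors without the erythropoietin receptor. The set comprised 10 genes chosen by name, namely Nfkb1, Nfkb2, Rel, Rela, Relb, Nfkbia, Nfkbib, Nfkbie, Nfkbiz and Bcl3. Of these, 9 had a probe set annotated to exactly 1 gene, out of 17874 genes measured that way, and Nfkb1 was not analysed here. The cells were CFU-E cells (colony-forming unit erythroid), a progenitor stage that depends on erythropoietin for survival, from livers of EpoR-/- BALB/c embryos at gestational day 13.5. They were enriched by lysis of red cells and by antibody depletion of cells with surface markers of other blood lineages or of later erythroid stages, from pools of 40 to 50 livers, and both samples were kept without growth factors for 1 h. The 3 h sample (1 Affymetrix array) was then cultured for 3 h in Panserin medium, and the 0 h sample (1 array) was lysed at once. The protocol says that no growth factors were added during the 3 h, whereas the treatment label of that sample names supplemental growth factors. As genotype the labels name Epo, and the protocol its receptor. A strain label is given for the 0 h sample alone, and the sources used here do not state whether both samples came from the same pool. No array of receptor-carrying cells was analysed here, so both groups of the comparison lack the receptor per the protocol.

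NF-kB proteins bind DNA as dimers of subunits that share a Rel homology region. In resting cells the cytoplasmic IkB proteins hold these dimers back. A signal from receptors such as those for tumour necrosis factor, interleukin-1 or Toll-like ligands activates the IkB kinase complex, which marks the IkB proteins for destruction and frees the dimers. A second route, through the kinase NIK, acts on the precursor encoded by Nfkb2 and releases dimers with RelB. Several genes of the system, among them those for IkB-alpha, RelB and the Nfkb2 precursor, are themselves NF-kB targets, which closes feedback loops on the factor.

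Values are the authors' RMA log2 expression values, and differences are 3 h minus 0 h, so a difference of -1 is a 2-fold lower value at 3 h. With 1 array per time there was no replicate, no test and no error for any value, and precision is limited by the number of arrays. Genes entered the counts if either array gave at least 5.70, the median over all gene values (the floor), and 9284 of 17874 genes did. Each of the 9 measured members had 1 probe set, so no member has another probe set to check it. The robust standard deviation of the differences over all genes at or above the floor was 0.31, which describes the spread between genes and is not a replicate error. The values describe bulk RNA, in which fewer cells of a type and less RNA per cell cannot be told apart.

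All 9 measured members had lower values at 3 h than at 0 h, and 8 of them reached the floor on both arrays. At least 2-fold lower were 4 of these 8, namely the regulator gene Nfkbiz, the subunit gene Relb, the inhibitor gene Nfkbie and the subunit precursor gene Nfkb2. Among the 9284 genes that reached the floor, 81 (0.872%) were lower to that extent. With 1.5-fold as the measure, Bcl3 joined them, so 5 of 8 members were lower, against 4.8% of all genes. None of the 8 was 1.5-fold higher, against 6.94% of all genes, and 2% of all genes were at least 2-fold higher. The median difference of the 8 members was -1.12, against 0.01 for all genes at or above the floor, of which 48.5% were lower by any amount. The genes were put forward with earlier results of these arrays known, so these shares describe the members and do not test them.

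**Figure D1:**
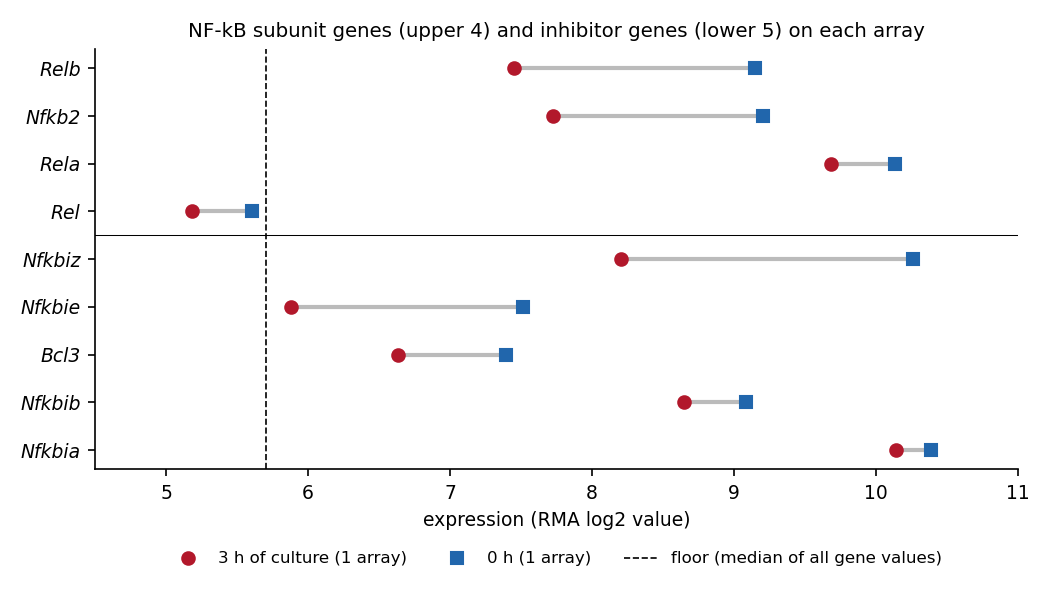
RMA log2 value (horizontal axis) of each measured NF-kB subunit gene (upper 4 rows) and inhibitor gene (lower 5 rows, Nfkbiz and Bcl3 included), with a circle for the 3 h array, a square for the 0 h array and a dashed line at the floor of 5.70. The circle lies left of the square in every row, with the widest gap for Nfkbiz (8.20 at 3 h and 10.26 at 0 h) and the narrowest for Nfkbia (10.14 at 3 h and 10.39 at 0 h), and Rel lies below the floor on both arrays.

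Among the 3 subunit genes at or above the floor, Relb and Nfkb2 had larger differences than Rela. The products of Relb and Nfkb2 act in the NIK-dependent route, but a change of that route was not tested. Relb, which encodes the usual partner of the processed Nfkb2 product, had a value of 7.45 at 3 h, against 9.15 at 0 h (probe set 1417856_at). The difference of -1.70, or 3.24-fold lower, was the 8th lowest of the 9284 genes. Nfkb2, which encodes the precursor and its processed DNA-binding form, had a value of 7.72 at 3 h, against 9.21 at 0 h (probe set 1425902_a_at). Its difference of -1.48, or 2.79-fold lower, was the 20th lowest. All values of both genes lay at least 1.75 above the floor on the log2 scale, so neither difference rested on a signal near background.

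Rela, which encodes the main activating subunit of the IkB-controlled route, differed less. Its value was 9.68 at 3 h, against 10.14 at 0 h, a difference of -0.45 or 1.37-fold lower, and 8.08% of genes were as low or lower. Rel, which encodes c-Rel, the subunit best known from lymphoid and myeloid cells, was below the floor on both arrays, with 5.18 at 3 h and 5.60 at 0 h. Its difference of -0.42 therefore compares signals near background and was not counted. The differences of Relb and Nfkb2 lay 0.21 apart, whereas those of Nfkb2 and Rela lay 1.03 apart. With 1 array per time the precision of such gaps is unknown.

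The genes grouped as inhibitors, which include those of the nuclear IkB proteins (Nfkbiz and Bcl3), covered a wider range. Nfkbiz, which encodes the nuclear protein IkB-zeta, a cofactor that is made on stimulation and helps to switch on a subset of NF-kB targets in macrophages, had a value of 8.20 at 3 h, against 10.26 at 0 h (probe set 1417483_at). Its difference of -2.06, or 4.18-fold lower, was the 2nd lowest of the 9284 genes, and both values were well above the floor. Nfkbie, which encodes the cytoplasmic inhibitor IkB-epsilon, had a value of 5.88 at 3 h, against 7.51 at 0 h (probe set 1458299_s_at). Its difference of -1.63, or 3.10-fold lower, was the 12th lowest. The 3 h value of Nfkbie lay 0.18 above the floor, and RMA shrinks differences between dim signals, so this fold is less certain than that of Nfkbiz.

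Bcl3, which encodes a nuclear IkB protein that binds homodimers of the processed precursors, lay between the large and the small differences. Its value was 6.64 at 3 h, against 7.40 at 0 h (probe set 1418133_at), a difference of -0.76 or 1.69-fold lower, and 2.22% of genes were as low or lower. The genes of the cytoplasmic inhibitors IkB-beta and IkB-alpha differed least. Nfkbib, the IkB-beta gene, had a value of 8.65 at 3 h, against 9.09 at 0 h, a difference of -0.44. Nfkbia, which encodes IkB-alpha, the inhibitor that is destroyed and remade fastest, had a value of 10.14 at 3 h, against 10.39 at 0 h. Its difference of -0.24, or 1.18-fold, was smaller than the spread between genes, and 21.2% of genes were as low or lower. The probe sets of Nfkbia, Nfkbib and Nfkbie carry the suffix _s_at, which marks possible matches to transcripts of more than 1 gene, and those of Nfkb2 and Rela carry _a_at, which marks several transcripts of 1 gene.

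**Figure D2:**
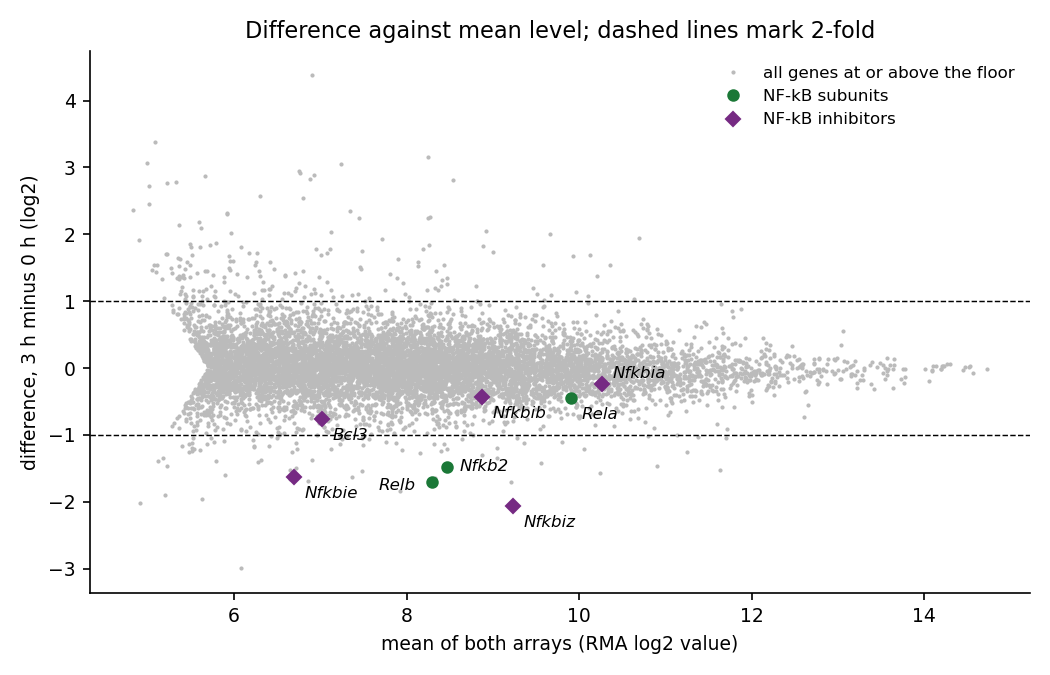
Difference at 3 h minus 0 h (vertical axis, log2) against the mean of both arrays (horizontal axis, RMA log2 value) for the 9284 genes at or above the floor (grey), with NF-kB subunit genes as circles and inhibitor genes (Nfkbiz and Bcl3 included) as diamonds, and dashed lines at 2-fold. Nfkbiz, Relb, Nfkbie and Nfkb2 lie below the lower dashed line and at different mean levels, and the other 4 members lie between the lower dashed line and 0.

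Several members are known targets of NF-kB itself, so their promoters are shown. RefSeq promoter windows, from 250 bases before to 50 after an annotated start site in the build GRCm38.p6, were given for 7 of the 10 genes, and they were not given for Nfkb1, Relb and Nfkbiz. The windows were searched on both strands for the kappaB consensus, the 10-base motif that NF-kB dimers bind, with overlapping matches counted separately. A match was found in 5 of the 7 genes, namely Nfkb2, Nfkbie, Bcl3, Rel and Nfkbia, and in none of the windows of Rela and Nfkbib. Of all 27025 genes with a window, 9.55% had a match. The windows of Nfkb2 (its first start, chr19:46304487-46304786, plus strand), Nfkbie (chr17:45555450-45555749, plus strand) and Bcl3 (chr7:19822706-19823005, minus strand) are printed for genes at least 1.5-fold lower at 3 h, and that of Nfkbia (chr12:55492598-55492897, minus strand) for the member with the smallest difference. They run from 5′ to 3′ along the gene, with the bases of consensus matches in capitals.
Nfkb2: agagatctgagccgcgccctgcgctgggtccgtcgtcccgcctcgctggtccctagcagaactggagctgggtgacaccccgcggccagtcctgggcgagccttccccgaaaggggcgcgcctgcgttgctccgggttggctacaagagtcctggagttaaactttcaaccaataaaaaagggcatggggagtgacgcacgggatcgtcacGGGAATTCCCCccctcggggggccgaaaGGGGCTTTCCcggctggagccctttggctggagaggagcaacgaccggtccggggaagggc
Nfkbie: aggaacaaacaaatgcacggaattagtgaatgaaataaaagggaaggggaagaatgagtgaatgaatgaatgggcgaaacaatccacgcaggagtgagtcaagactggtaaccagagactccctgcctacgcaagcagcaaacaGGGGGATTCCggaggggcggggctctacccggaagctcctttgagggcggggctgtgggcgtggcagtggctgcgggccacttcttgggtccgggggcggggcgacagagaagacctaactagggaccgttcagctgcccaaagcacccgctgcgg
Bcl3: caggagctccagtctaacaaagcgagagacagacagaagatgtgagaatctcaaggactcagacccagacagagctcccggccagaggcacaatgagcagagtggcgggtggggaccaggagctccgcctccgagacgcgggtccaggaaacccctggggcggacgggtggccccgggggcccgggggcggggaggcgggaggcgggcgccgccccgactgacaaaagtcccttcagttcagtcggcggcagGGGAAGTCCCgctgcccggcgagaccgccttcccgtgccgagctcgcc
Nfkbia: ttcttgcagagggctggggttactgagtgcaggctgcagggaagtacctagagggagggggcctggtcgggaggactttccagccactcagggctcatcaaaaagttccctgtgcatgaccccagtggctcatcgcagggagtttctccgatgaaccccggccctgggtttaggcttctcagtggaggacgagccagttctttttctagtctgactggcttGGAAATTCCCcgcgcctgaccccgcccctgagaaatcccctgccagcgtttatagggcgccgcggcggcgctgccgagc

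In the first Nfkb2 window 3 matches lay close to the start site. A pair that overlap by all but 1 base began 39 and 38 bases before it, and the third match began 11 bases before it. Nfkb2 has 3 annotated windows, and each held at least 1 match, with the other 2 windows sharing 1 of theirs. The Nfkbie match began 106 bases and the Nfkbia match 29 bases before the start site, and the Bcl3 match began 2 bases after it. Matches were thus present both in members with a large difference (Nfkb2, -1.48, and Nfkbie, -1.63) and in the member with the smallest (Nfkbia, -0.24). Among windows of all genes, 1.22% held at least 2 matches and 0.186% at least 3. A looser form of the motif, GGGNNNNNCC, was present in 50.8% of all windows and in 6 of the 7 genes, all but Nfkbib.

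**Figure D3:**
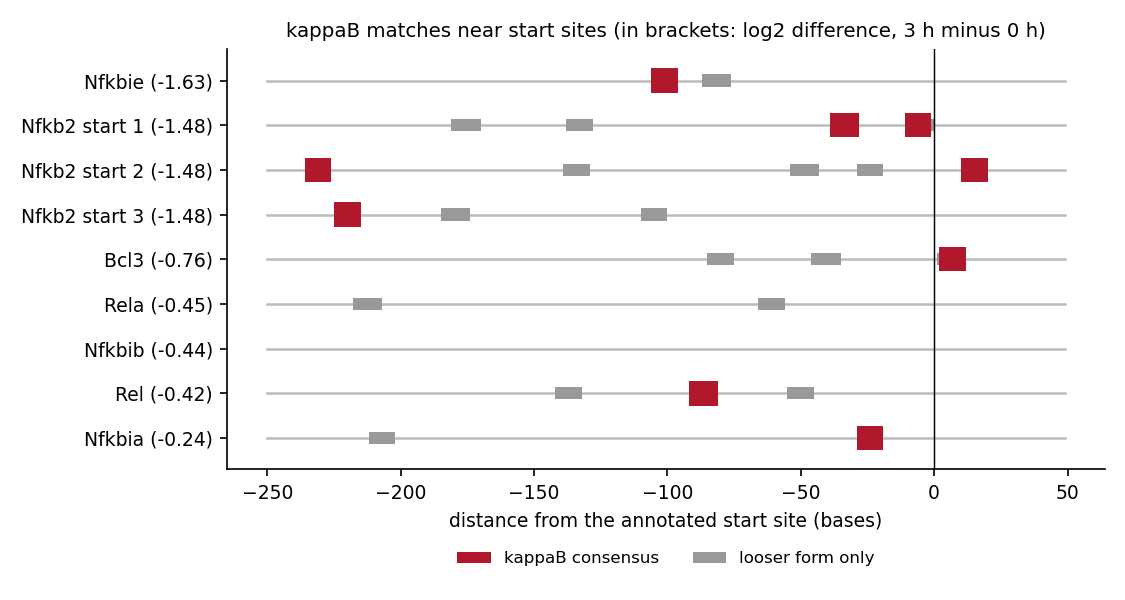
Positions of kappaB consensus matches (tall blocks) and of matches to the looser form alone (short blocks) along the windows of 7 members, as distance in bases from the annotated start site (vertical line), ordered by the log2 difference at 3 h minus 0 h given in brackets. Matches occur at the top of the order (Nfkbie, -1.63) as well as at its foot (Nfkbia, -0.24), and Rela and Nfkbib have no consensus match in their windows.

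Across all genes at or above the floor that had a window, 953 had a consensus match and 6650 did not. At least 2-fold lower at 3 h were 15 of those with a match (1.57%) and 44 of those without (0.662%). Leaving out the members, the share was 13 of 949 (1.37%) with a match and 44 of 6648 (0.662%) without. The median difference was -0.0036 with a match and 0.0064 without. At least 2-fold higher were 1.78% of genes with a match and 1.95% of those without. These shares are descriptions of 1 array at each time, and base composition was not matched between the groups of genes. The 13 genes other than members with a match and a value at least 2-fold lower were Fosb (-2.99), Lin28a (-1.96), Nr4a1 (-1.71), Hivep1 (-1.69), Maff (-1.55), Fos (-1.53), Slc7a7 (-1.49), Neurl3 (-1.37), Aldh1b1 (-1.28), Egr2 (-1.13), Mtmr14 (-1.06), Sertm1 (-1.04) and Bhmt2 (-1.03), named after their values were seen. The 3 h values of Fosb, Lin28a and Sertm1 were below the floor, so these 3 were counted through their 0 h values alone. Fosb, Fos, Nr4a1 and Egr2 belong to the immediate early genes, whose transcription starts within minutes of a stimulus.

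Most other genes of the pathway were not lower at 3 h. Of 128 other genes in 7 lists, 115 were measured and 76 reached the floor. The 76 included 3 that were at least 2-fold lower, against 0.872% of all genes at or above the floor. At least 2-fold higher were 9 of the 76, against 2% of all genes. With 1.5-fold as the measure, 17 of the 76 were higher and 8 lower, against 6.94% and 4.8% of all genes. By any amount 51 were higher and 25 lower, whereas 48.5% of all genes were lower. The median difference of the 76 was 0.17, against -1.12 for the 8 members and 0.01 for all genes. Among the other IkB-like and nuclear regulators, 4 of 5 at or above the floor were lower, and the median was -0.31. Lower by at least 1.5-fold was 1 of the 5, against 4.8% of all genes. Nfkbid, which encodes the nuclear protein IkB-NS, a close relative of the Nfkbiz and Bcl3 products, had 5.41 at 3 h and 6.32 at 0 h, a difference of -0.91, with the 3 h value below the floor. Commd1, which promotes the removal of the Rela product, differed by -0.52 and the repressor gene Nkrf by -0.31. Nfkbil1 differed by 0.25, with a 0 h value of 5.69 just below the floor.

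Genes of the IkB kinase complex, its relatives and the kinase complex upstream of it were mostly higher by small amounts. Of 8 at or above the floor (Ikbkb, Ikbkg, Ikbke, Tbk1, Map3k7, Tab1, Tab2 and Tab3), 7 were higher and 1 lower, none by 2-fold, with a median of 0.25. Ikbke, an interferon-linked relative of the IkB kinases, had 6.95 at 3 h and 6.25 at 0 h (difference 0.70), and its partner Tbk1 had 9.44 at 3 h and 8.89 at 0 h (0.55). Map3k7, which encodes the upstream kinase TAK1, differed by 0.30, and Tab3, which encodes a binding partner of TAK1, by 0.36. The core kinase gene Ikbkb (0.08) and the scaffold gene Ikbkg (0.20), named after their values were seen, differed less, and the NIK gene Map3k14, also named then, was below the floor on both arrays (5.27 at 3 h and 5.43 at 0 h). Adaptor and ubiquitin genes were near 0 as a list, with 9 of 17 higher, 8 lower and a median of 0.01. None of the 17 differed by 1.5-fold, whereas 6.94% of all genes were that much higher and 4.8% that much lower. Tradd, an adaptor of tumour necrosis factor receptor signalling, differed by 0.38, the kinase gene Irak1 by -0.30, the ubiquitin ligase subunit gene Cul1 by 0.29 and Traf5 by 0.24.

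**Figure D4:**
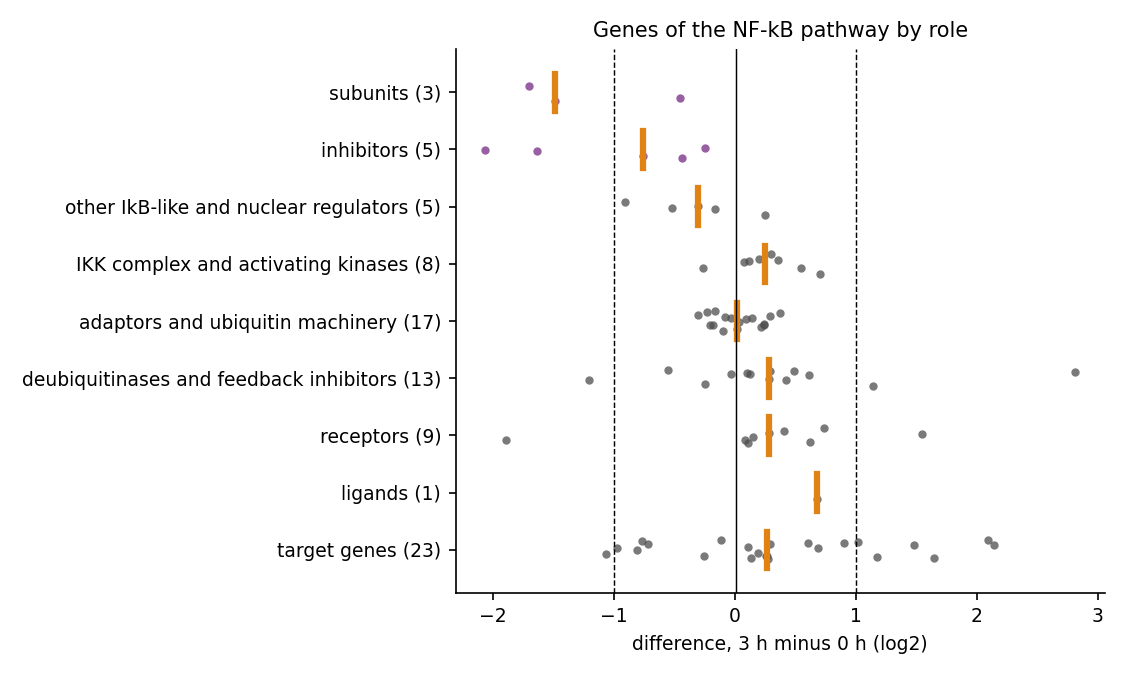
Difference at 3 h minus 0 h (horizontal axis, log2) of each gene at or above the floor, by role, with the number of genes in brackets, a bar at the median of each list, dashed lines at 2-fold and a solid line at the median of all genes (0.01). The subunit genes (median -1.48) and inhibitor genes (median -0.76, Nfkbiz and Bcl3 included) lie wholly below 0, as does the median of the other IkB-like and nuclear regulators (-0.31), while the medians of the IKK complex and activating kinases (0.25), adaptors (0.01), feedback genes (0.28), receptors (0.28) and target genes (0.27) lie above it.

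Feedback genes went both ways. Of 13 deubiquitinase and feedback genes at or above the floor, 2 were 2-fold or more higher, against 2% of all genes. Lower by 2-fold or more was 1 of the 13, against 0.872% of all genes, and the median was 0.28. Zc3h12a, which encodes Regnase-1, an RNase that degrades inflammatory mRNAs, had 4.93 at 3 h and 6.14 at 0 h (difference -1.21), with the 3 h value below the floor. Usp18, an interferon-induced protease gene, had 9.94 at 3 h and 7.13 at 0 h (2.81). Tnfaip8l2 differed by 1.15 and the deubiquitinase gene Otud7b by 0.61, with 0 h values of 4.81 and 5.58 below the floor. Tnfaip3, which encodes A20, a feedback inhibitor that NF-kB induces, had 8.43 at 3 h and 8.31 at 0 h (0.12), and Tnip1, whose product binds A20, differed by -0.25. Both were named after their values were seen.

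Receptor and ligand genes were often below the floor. Of 18 receptor genes 9 reached it, 8 higher and 1 lower at 3 h. The lower one was Tnfrsf13c, the BAFF receptor gene, a receptor of the NIK-dependent route in B cells, with 4.25 at 3 h and 6.15 at 0 h (difference -1.89) and a 3 h value below the floor. Tnfrsf12a, which encodes the receptor of TWEAK, had 11.13 at 3 h and 9.58 at 0 h (1.55), and Cd40 (0.74) and Cd14 (0.62) were higher by less than 2-fold. The 0 h value of Cd40 (5.61) was below the floor. The probe set of Tnfrsf12a has the suffix _x_at and that of Cd40 _s_at, so both may match other transcripts. Of 10 measured ligand genes, Ltb alone reached the floor, with 6.85 at 3 h and 6.18 at 0 h. Tnf and Il1b, named after their values were seen, were below it on both arrays, with 4.96 and 4.94 at 3 h and 4.98 and 4.88 at 0 h. Such a value from 1 probe set is no proof that a gene is silent.

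Genes known as NF-kB targets, largely from fibroblasts and macrophages, were split. Of 23 at or above the floor, 6 were higher by 2-fold or more, against 2% of all genes. Lower by as much was 1 of the 23, against 0.872% of all genes. By any amount 16 were higher and 7 lower, whereas 48.5% of all genes were lower, and the median was 0.27. The chemokine gene Ccl2 had 6.43 at 3 h and 4.29 at 0 h (difference 2.15), the prostaglandin synthase gene Ptgs2 6.66 at 3 h and 4.57 at 0 h (2.09), Lcn2 6.17 at 3 h and 4.53 at 0 h (1.64) and Ccl3 7.20 at 3 h and 5.72 at 0 h (1.48). The 0 h values of Ccl2, Ptgs2 and Lcn2 were below the floor and that of Ccl3 just above it, so these 4 folds rest on signals near background, and Lcn2 is also a granulocyte marker. At least 1.5-fold higher were 9 target genes and 5 were at least 1.5-fold lower, against 6.94% and 4.8% of all genes. Among the 9 were Csf1 (1.17), Saa3 (1.02) and Fas (0.90), named after their values were seen. The 5 target genes at least 1.5-fold lower, named after their values were seen, were Junb (-1.07), the adhesion gene Vcam1 (-0.98), the cyclin gene Ccnd1 (-0.81), the chemokine gene Cxcl1 (-0.77) and the mitochondrial dismutase gene Sod2 (-0.72). Icam1 (0.11), Birc3 (0.01) and Gadd45b (0.29), also targets named then, differed by less than the spread between genes.

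Markers of erythroid progenitors and of other cell types also differed between the arrays. The CFU-E label was met by Gata1 (10.15 at 3 h and 9.32 at 0 h), Klf1 (12.31 at 3 h and 12.03 at 0 h) and Kit (9.03 at 3 h and 9.01 at 0 h), and of 9 erythroid progenitor markers at or above the floor 8 were higher at 3 h, with a median difference of 0.61. Epor had 6.89 at 3 h and 7.08 at 0 h, but where its probe set lies relative to the deletion is unknown, so the value is no check of the genotype. The next 3 lists are counted over all measured markers, also those below the floor. On that basis 8965 of 17874 genes were higher and 8907 lower. Of 17 granulocyte and mast cell markers 15 were higher, among them all 11 at or above the floor. The median level of the 17 was 6.31 (range 3.04 to 12.2) at 3 h and 5.11 (2.96 to 11.7) at 0 h. Macrophage and monocyte markers were higher in 12 of 18, with a median level of 5.30 (2.44 to 10.7) at 3 h and 4.41 (2.50 to 9.22) at 0 h, and a median difference of 0.90 over the 6 at or above the floor. Among these 6, Lyz1 (2.00), Lyz2 (1.83), Csf1r (1.00), Fcgr3 (0.80) and Cd14 (0.62) were higher, whereas Vcam1 (-0.98) was lower. Adgre1, Cd68, C1qa and Itgam were below the floor on both arrays. Hepatocyte markers were lower in 15 of 17, with a median level of 12.1 (8.31 to 14.5) at 3 h and 12.2 (9.01 to 14.6) at 0 h, and a median difference of -0.19. That median level was above the one of the erythroid progenitor markers on both arrays. Afp had the highest values of the list, 14.53 at 3 h and 14.60 at 0 h. Of 12 lymphoid markers Ighm alone reached the floor, with 6.44 at 3 h and a 0 h value (5.699) just below it. Of 6 megakaryocyte markers 4 reached the floor (median difference 0.27), and of 8 endothelial markers 2 did (0.12). Myeloid cells and hepatocytes also express NF-kB genes, and the part of these cells in the differences of the members was not tested.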

How the data were processed

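Expression was measured with 1 Affymetrix mouse array at 3 h and 1 at 0 h, after a one-cycle labelling of 1.5 µg of total RNA per the labels' protocols. The authors deposited log2 values made with RMA and the affy package, per the submitters' processing notes. Neither version is given in the sources used here. RMA corrects background, forces one distribution of probe values on all arrays and summarises probes into probe sets, so a change common to all transcripts could not show. Arrays have no read depth.

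The values were used as deposited. Of 20666 probe sets, 17918 had 1 gene in the platform annotation, and 17767 of these were matched by Entrez ID to RefSeq genes (GRCm38.p6), with 0 symbols changed. Probe sets of a gene were averaged. The members, gene lists (7 of pathway genes, 7 of markers), thresholds of 2-fold and 1.5-fold and alternatives were chosen with earlier results of these data known. Named were all members and, of each pathway list, up to 4 genes at or above the floor with the largest absolute difference. No test was made, since each time has 1 array. Protein sequences were not used here. The steps were tested on simulated data. Alternatives were quantile normalization, an intensity trend removed by loess (span 0.3), only the brightest probe set of each gene, other probe set classes and other floors. Python 3.11.15 with numpy 2.4.6, pandas 2.3.3, statsmodels 0.14.6 and matplotlib 3.10.9 was used.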

Additional observations from a re-analysis of the deposited data

How the results depend on the processing

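All 9 measured members stayed lower at 3 h under each of 6 alternatives and 1 more that was chosen after seeing the data, wherever their probe sets were kept, and no difference of a member crossed the 2-fold line. The difference of Nfkbiz ranged from -2.06 to -2.05, that of Relb from -1.72 to -1.70 and that of Nfkbia from -0.24 to -0.22. The scaling alternatives moved the median of all genes by less than 0.02, from 0.01 to -0.01 after quantile normalization. Without probe sets of the classes _s_at, _x_at and _a_at, Nfkb2, Rela, Nfkbia, Nfkbib and Nfkbie have no value. The median of the remaining gene values, and so the floor, was then 5.36, which Rel reached at 0 h. Thus 4 members were counted (Nfkbiz, Relb, Bcl3 and Rel), 2 of them at least 2-fold lower (Nfkbiz and Relb) and 3 at least 1.5-fold lower. Of all genes counted in that setting, 1.02% were at least 2-fold lower and 5.03% at least 1.5-fold lower. With the floor at the 75th percentile of gene values (7.96), 6 members were counted and 3 were at least 1.5-fold lower, since Nfkbie and Bcl3 lay below it. Of all genes counted with that floor, 4.46% were at least 1.5-fold lower. With no floor all 9 measured members were counted, Rel included, and their median was -0.76. By the added alternative, which left out _s_at and _x_at probe sets and had a floor of 5.59, Rel was again counted. At least 2-fold lower were then 3 of 6 members, against 0.907% of all genes counted. No paired analysis was possible because each time has 1 array and the labels give no replicate numbers. With 1 array per time, no alternative informs how the values would vary between cultures.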
